A study of Homo sapiens with 12 samples.

Results

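Genes of the autophagosome formation machinery were examined in RNA-seq libraries of HCT 116 p53-/- colon cancer cells. The genes were chosen by function: the kinase complex that starts autophagy, the phosphatidylinositol 3-kinase complex, lipid transfer and ATG9 factors, the ATG conjugation enzymes and the factors that fuse the autophagosome with the lysosome, without the LC3 family and the cargo receptors. They were 36 of the 60617 genes listed, and all 36 passed the filter on low counts. The series compared HCT 116 p53-/- cells with a line derived from them, called RPL3 KO in the sample labels and uL3ΔHCT 116 p53-/- in the study, which describes it as stably silenced for the ribosomal protein uL3, the product of RPL3. HCT 116 is an established human colorectal carcinoma line, and the p53 deletion is carried by both lines, controls included. Each line received 5 nM actinomycin D (Act D) for 24 h or vehicle (vehicle CTR), with 3 libraries per group labelled as biological replicates. Act D binds DNA and, at low doses, mainly blocks transcription by RNA polymerase I. The uL3Δ line is 1 derived line, so that any difference between this line and its parent that arose apart from uL3 cannot be told apart from the label, and p-values measure the spread between the libraries of 1 line each.

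Autophagy encloses parts of the cytoplasm in a double membrane, the autophagosome, and delivers them to the lysosome. The ULK kinase complex receives signals from the nutrient sensors mTORC1 and AMPK and starts the process. The PIK3C3 lipid kinase complex then makes the lipid PI3P at the growing membrane, where WIPI proteins bind, and ATG2, ATG9A, VMP1 and TMEM41B supply and redistribute lipids. The ATG conjugation enzymes attach LC3 and GABARAP proteins to the membrane, and the SNARE proteins STX17, SNAP29 and VAMP8 fuse the closed autophagosome with the lysosome.

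Total expected counts were between 10087925 and 21138886 per library. Levels below are TMM-scaled CPM unless given as TPM, the scale that takes transcript length into account and was used for comparing genes with each other. CPM relates a gene's count to all counts of its library and TPM to all transcripts. RPL3 had a mean of 1138 ± 15.3 CPM in vehicle-treated p53-/- libraries and 1242 ± 82.5 CPM in those labelled uL3Δ (log2 fold change 0.13 ± 0.078, adjusted p = 0.155), with Act D 1127 ± 13.7 and 1224 ± 79.8 CPM (adjusted p = 0.187). On the CPM scale the gene named by the labels was thus not lower in the libraries labelled uL3Δ. Its TPM was 826, 719.9 and 781 in vehicle-treated p53-/- libraries and 641, 545 and 583 in uL3Δ-labelled ones, and with Act D 763, 759 and 692 and 601, 523 and 533, lower without overlap. The direction thus depended on the scale. On log2(TPM + 0.1), however, the median log2 fold change of all genes between the lines was -0.47 with vehicle and -0.50 with Act D. The TPM values of RPL3 were not adjusted for this shift, so their lower level cannot be told apart from it. The libraries are called by their label throughout. The marker genes of cell identity also differed between the lines. The 11 colon epithelial markers summed to 2480 to 2682 CPM in vehicle-treated p53-/- libraries and 1591 to 1784 CPM in uL3Δ-labelled ones, with CDH1 (E-cadherin) at 66.8 and 0.445 CPM, and the 9 mesenchymal markers summed to 57.8 to 70.5 and 2591 to 2670 CPM, with VIM (vimentin) at 22 and 2237 CPM. Of the 7 epithelial markers tested, 6 were lower and 1, KRT18, was higher (605 and 840.3 CPM), and of the 8 mesenchymal markers tested 6 were higher and 1, COL1A1, was lower (7.50 and 4.14 CPM). CDX2 was at 14.8 and 0.177 CPM, and CDX1 and CDH17 had no count in vehicle-treated p53-/- libraries. The 4 blood markers summed to at most 0.7 CPM and the 3 endothelial markers to at most 1.97 CPM in any library. These differences move with every comparison between the lines below, and their part in them was not tested. In bulk RNA, fewer cells of a type and less RNA per cell cannot be told apart.

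In vehicle-treated p53-/- cells the 36 genes had a median of 8.34 TPM. WDR45B, a PI3P-binding protein of the WIPI family, was the highest with 65.1 TPM, followed by the membrane protein VMP1 with 43.6, the ubiquitin-like protein ATG12 with 37.9 and the scaffold BECN1 with 32.2. The lowest were ATG2B with 1.30, EPG5 with 1.49, ATG10 with 1.66 and ULK1 with 1.80 TPM. In vehicle-treated uL3Δ-labelled libraries the order was another: ATG101, a partner of ATG13 in the ULK complex, was the highest with 48.2 TPM, and WDR45B was below 4 others with 21.9 TPM. ULK2 was the lowest there with 0.44 TPM. The summed TPM of the 5 ULK complex genes was 42.3 to 51.4 in vehicle-treated p53-/- libraries and 67.5 to 94.8 in uL3Δ-labelled ones, and that of the 9 lipid transfer and ATG9 genes was 139 to 176 and 99.1 to 129, neither with overlap. That of the 5 fusion genes was 29.2 to 29.7 and 20.1 to 25.7 TPM, lower in uL3Δ-labelled libraries and also without overlap. The sums of the 7 PI3K complex genes (65.4 to 81.5 and 44.9 to 69.8 TPM) and of the 10 conjugation genes (123 to 155 and 103 to 145 TPM) overlapped. Single genes weighed heavily in these sums. In the ULK complex mean ATG101 went from 24.9 to 48.2 TPM and RB1CC1 from 6.63 to 16.1. ULK1 was also higher there, and ATG13 and ULK2 were lower. Among the lipid transfer and ATG9 genes mean WDR45B went from 65.1 to 21.9 TPM, and VMP1, WIPI1 and WIPI2 were also lower. ATG2A, ATG2B, ATG9A, WDR45 and TMEM41B were higher. None of the sums was adjusted for the level of all genes. On log2(TPM + 0.1), the median log2 fold change of all genes between the lines with vehicle was -0.47. The lower sums therefore cannot be told apart from that shift.

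**Figure D1:**
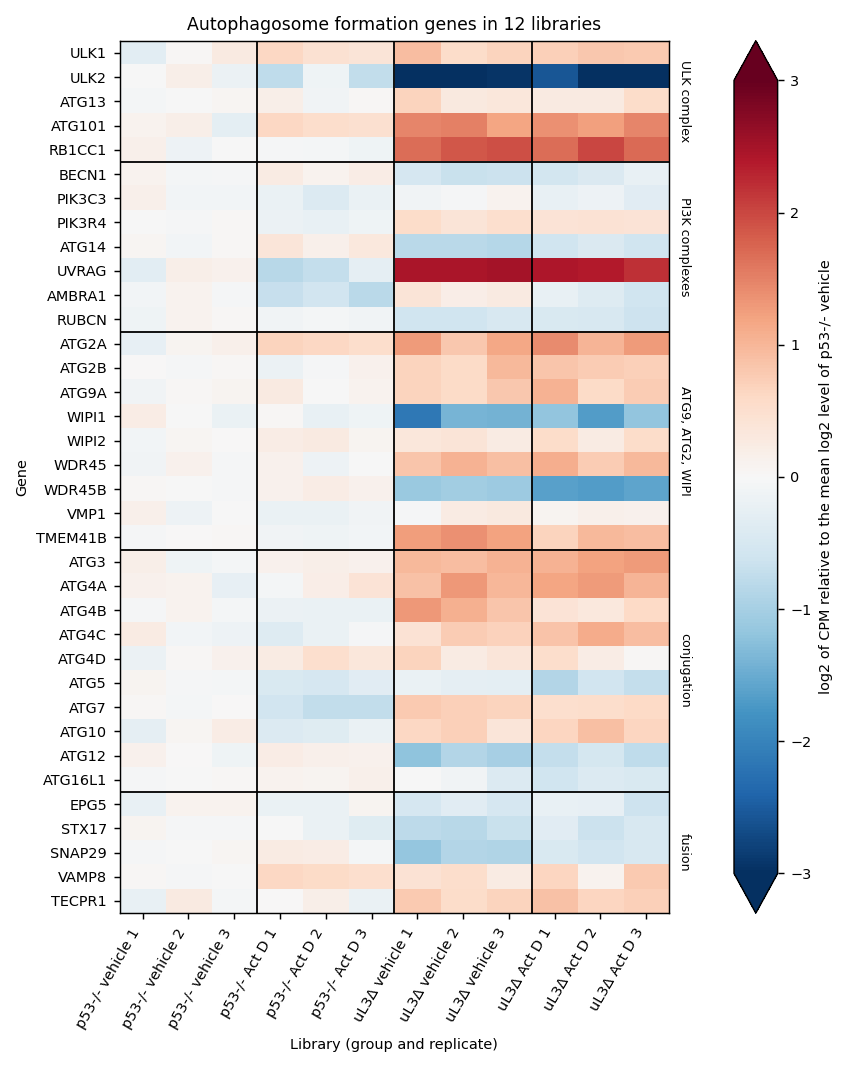
Heatmap of the 36 genes (rows, in order of role) in the 12 libraries (columns, by group and replicate). Colour is the log2 CPM of a library minus the mean of vehicle-treated p53-/- libraries, and the scale ends at 3 in either direction, which only ULK2 reaches, in uL3Δ-labelled libraries. UVRAG and RB1CC1 stand out as higher and ULK2, WIPI1 and WDR45B as lower in the 6 uL3Δ-labelled libraries, while Act D columns resemble the vehicle columns of the same line.

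The first comparison asked how the lines differ without drug. Of the 36 genes, 22 were higher and 11 lower in the vehicle-treated uL3Δ-labelled libraries by edgeR's quasi-likelihood test (Benjamini-Hochberg adjusted p under 0.05). That is 91.7% of the members, where 71.3% of the 15692 genes tested were called, 35.1% as higher and 36.2% as lower. The 23 members that also differed by at least 1.5-fold compare with 54.5% of all genes, and the libraries of the groups did not overlap for 33 members, against 72.5% of all genes. The median log2 fold change was 0.43 over the members and -0.021 over all genes tested. The 3 members not called were PIK3C3, VMP1 and ATG16L1. Values in parentheses below are log2 fold changes, with the standard error of the fit after ± and the adjusted p of the same test, unless another quantity is named. The direction of the smaller differences depended on the scale. With limma on log2(TPM + 0.1), 10 members were higher and 12 lower. There the median of all genes shifts to -0.47 with vehicle and -0.50 with Act D. By library size alone, where it shifts to -0.26, 16 were higher and 12 lower. With the log2 TPM libraries centred on their median, where the median of all genes was 0.020, 20 were higher and 9 lower. This centring was chosen after seeing the data.

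**Figure D2:**
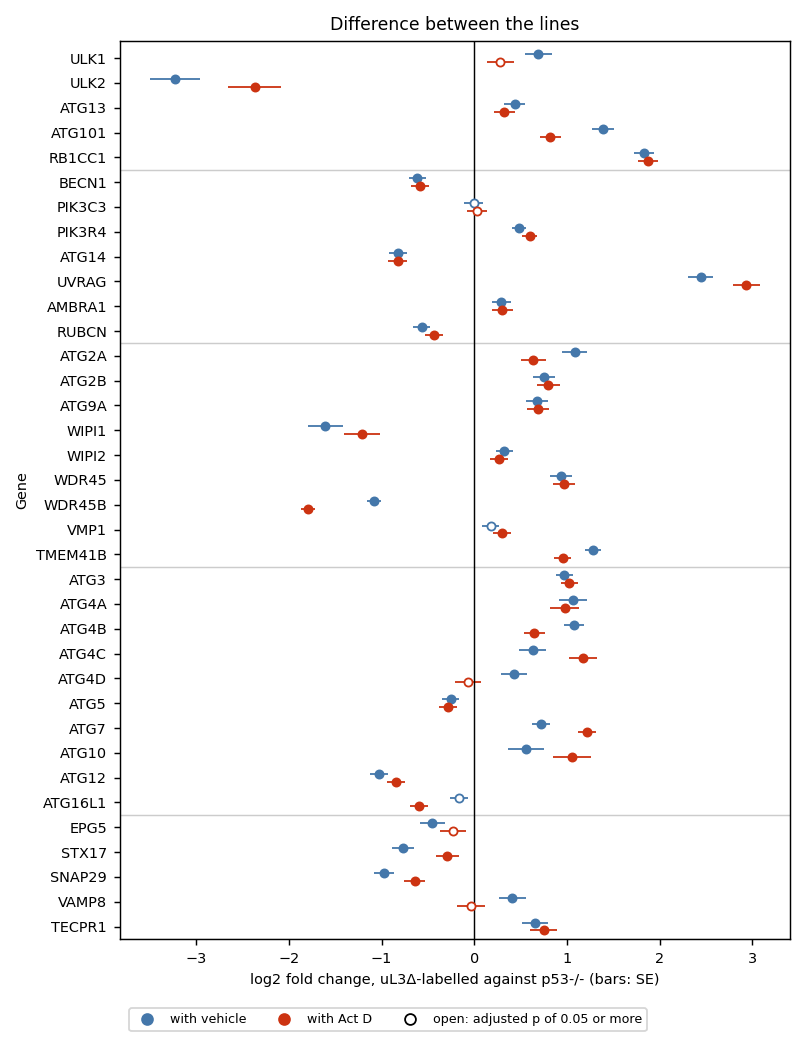
Difference between the lines for each of the 36 genes (vertical axis, grouped by role), as log2 fold change of uL3Δ-labelled against p53-/- libraries (horizontal axis), with vehicle in blue and with Act D in red. Bars are standard errors from the fit, and open points have an adjusted p of 0.05 or more. ULK2 lies farthest to the left at -3.22 and -2.37, and UVRAG farthest to the right at 2.44 and 2.93.

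Within the ULK complex, 4 of 5 genes were higher and 1, ULK2, was lower in uL3Δ-labelled libraries with vehicle. ULK1 and ULK2 encode related kinases that can each start autophagy, and the difference between the lines had opposite signs for them. ULK2 (hg38 chr17:19770829-19867936, minus strand) had 7.71, 8.81 and 6.82 CPM in vehicle-treated p53-/- libraries and 0.643, 0.801 and 1.01 CPM in uL3Δ-labelled ones. The groups were far apart, 9.34-fold on average, the largest difference among the members (log2 fold change -3.22 ± 0.27, adjusted p = 6.08e-09). The uL3Δ-labelled values of ULK2 rested on few counts, 8, 16 and 15. ULK1 (chr12:131894622-131923150, plus strand) had 8.94, 11.5 and 13.6 CPM and 21.3, 16.4 and 17.6 CPM, so that every uL3Δ-labelled library was above every p53-/- library (log2 fold change 0.69 ± 0.14, adjusted p = 0.000313).

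The 250 bases before the RefSeq start of each kinase gene are shown because these related genes differed in opposite directions. The windows are from GRCh38.p14, ULK1 at chr12:131894372-131894621 on the plus strand and ULK2 at chr17:19867937-19868186 on the minus strand, each written 5′ to 3′ on the gene's strand, with GC boxes (GGGCGG, or CCGCCC on the other strand) in capitals.
ULK1: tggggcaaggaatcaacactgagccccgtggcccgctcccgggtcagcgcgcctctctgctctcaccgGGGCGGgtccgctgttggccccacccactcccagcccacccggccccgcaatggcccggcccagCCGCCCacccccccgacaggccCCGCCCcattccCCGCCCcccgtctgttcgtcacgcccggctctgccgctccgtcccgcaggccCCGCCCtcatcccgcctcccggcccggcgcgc
ULK2: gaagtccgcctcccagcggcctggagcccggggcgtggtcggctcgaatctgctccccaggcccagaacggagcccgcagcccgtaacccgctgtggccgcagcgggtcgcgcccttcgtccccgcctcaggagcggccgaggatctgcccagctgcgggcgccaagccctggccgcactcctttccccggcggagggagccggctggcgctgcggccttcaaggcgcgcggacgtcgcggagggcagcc
The ULK1 window held 5 GC boxes and the ULK2 window none, and neither held a CACGTG E-box or a CCAAT box on either strand. GC boxes were present in 66.7% of the 30 members with a RefSeq window and in 42.6% of all 35116 windows of the same length. A CCAAT box was in 46.7% of members and 32.0% of all windows. Members were counted per gene, while all windows were counted singly and not limited to expressed genes, so the shares are of unlike sets. These matches describe letters only. The windows to print were chosen after the expression values were seen.

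The scaffold RB1CC1, also called FIP200 (chr8:52622458-52745843, minus strand), was at 54.4, 44 and 48.3 CPM in vehicle-treated p53-/- libraries and 156, 178 and 188 CPM in uL3Δ-labelled ones. All 3 uL3Δ-labelled libraries were thus 3.56-fold higher on average (log2 fold change 1.83 ± 0.11, adjusted p = 3.51e-11). ATG101 (chr12:52069246-52077495, plus strand) had 44.7, 46.6 and 33.6 CPM and 114, 119 and 93.9 CPM, again without overlap (log2 fold change 1.39 ± 0.12, adjusted p = 7.57e-09). ATG13, the adaptor that joins the kinase to RB1CC1, had 38.4, 39.7 and 41.1 CPM and 62.7, 48.9 and 49.8 CPM. Its groups did not overlap and it was called higher (log2 fold change 0.43 ± 0.11, adjusted p = 0.00201), but on the log2(TPM + 0.1) scale its value was -0.26.

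With Act D, ULK2, RB1CC1, ATG101 and ATG13 kept their direction and their call between the lines, and ULK1 did not pass the test. ULK2 had 4.55, 7.10 and 4.66 CPM in p53-/- and 1.31, 0.799 and 0.928 CPM in uL3Δ-labelled libraries (log2 fold change -2.37 ± 0.29, adjusted p = 8.15e-07). The latter again rested on few counts, 18, 7 and 8. RB1CC1 had 47.3, 46.5 and 44.6 CPM and 156, 195 and 158 CPM (log2 fold change 1.88 ± 0.11, adjusted p = 3.57e-11). The libraries of the lines did not overlap for either gene. ATG101 had 63.2, 59.4 and 57.2 CPM and 107, 97.0 and 114 CPM (log2 fold change 0.82 ± 0.12, adjusted p = 6.15e-06). ULK1, at 17.1, 15.3 and 14.6 CPM and 18.5, 19.5 and 19.2 CPM, did not overlap between the lines but missed the threshold (0.28 ± 0.14, adjusted p = 0.0919), which it passed when only the 2 groups compared were fitted (adjusted p = 0.033). ATG13, at 44.9, 37.1 and 40.5 CPM and 47.6, 47.5 and 58.3 CPM, passed the test (log2 fold change 0.32 ± 0.11, adjusted p = 0.0176) but was at -0.19 on the log2(TPM + 0.1) scale. The adjusted p of ATG13 was 0.0922, 0.0805 and 0.206 without p53-/- Act D replicate 2, p53-/- Act D replicate 3 or uL3Δ-labelled Act D replicate 3, respectively.

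Among the 7 PI3K complex genes, UVRAG, PIK3R4 and AMBRA1 were higher and BECN1, ATG14 and RUBCN lower in uL3Δ-labelled libraries with vehicle, and the same 6 were called in the same direction with Act D. PIK3C3, the catalytic subunit also called VPS34, was not called either time (-0.0058 ± 0.10, adjusted p = 0.963 with vehicle). ATG14 and UVRAG are alternative partners of BECN1, ATG14 in the complex that acts at the forming autophagosome and UVRAG in the one that acts on endosomes and later steps, and they differed in opposite directions. UVRAG (chr11:75815210-76144232, plus strand) had 7.32, 10.2 and 9.96 CPM in vehicle-treated p53-/- libraries and 49.2, 49.3 and 50.8 CPM in uL3Δ-labelled ones, a 5.43-fold difference, the largest upward among the members (log2 fold change 2.44 ± 0.14, adjusted p = 2.54e-11). With Act D it had 5.11, 5.48 and 7.56 CPM and 48.9, 46.9 and 41.2 CPM, a 7.63-fold difference (log2 fold change 2.93 ± 0.15, adjusted p = 7.09e-12). The highest p53-/- library stayed far below the lowest uL3Δ-labelled library under both treatments.

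ATG14 was at 27.7, 25.1 and 27.4 CPM in vehicle-treated p53-/- libraries and 15.3, 15.3 and 14.9 CPM in uL3Δ-labelled ones (log2 fold change -0.82 ± 0.10, adjusted p = 9.01e-07), and with Act D at 34.3, 29.7 and 33.3 and 17.7, 19.6 and 17.6 CPM (log2 fold change -0.83 ± 0.10, adjusted p = 1.08e-06). Every p53-/- library was above every uL3Δ-labelled one. The 250 bases before its RefSeq start (GRCh38.p14 chr14:55411831-55412080, minus strand, written 5′ to 3′ on the gene's strand) are shown because this was 1 of only 3 members' windows, with ATG3 and SNAP29, that held a CACGTG E-box, in capitals here. The share was 10.0% of the 30 members, counted per gene, and 6.34% of all windows, counted singly and not limited to expressed genes. ATG3 was higher and SNAP29, like ATG14, lower in uL3Δ-labelled libraries under both treatments. The match describes letters only.
ATG14: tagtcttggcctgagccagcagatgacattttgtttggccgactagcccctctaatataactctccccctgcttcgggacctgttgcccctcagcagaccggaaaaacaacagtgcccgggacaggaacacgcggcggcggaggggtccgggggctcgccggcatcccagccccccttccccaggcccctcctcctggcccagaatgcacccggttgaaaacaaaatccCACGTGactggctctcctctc
BECN1, the scaffold of both complexes, was lower with vehicle (log2 fold change -0.61 ± 0.094, adjusted p = 1.37e-05) and with Act D (-0.58 ± 0.095, adjusted p = 2.89e-05). RUBCN, which inhibits the UVRAG complex, was lower with vehicle (-0.57 ± 0.094, adjusted p = 3.32e-05) and Act D (-0.44 ± 0.097, adjusted p = 0.000643). PIK3R4, the regulatory subunit VPS15, was higher with vehicle (0.48 ± 0.076, adjusted p = 2.1e-05) and Act D (0.60 ± 0.078, adjusted p = 2.29e-06).

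AMBRA1, which promotes BECN1 and ULK1 activity, had 36.8, 42.0 and 37.9 CPM in vehicle-treated p53-/- libraries and 51.1, 44.9 and 46.8 CPM in uL3Δ-labelled ones (log2 fold change 0.29 ± 0.10, adjusted p = 0.0183), and 24.0, 25.9 and 22.3 and 33.5, 29.5 and 25.7 CPM with Act D (log2 fold change 0.30 ± 0.11, adjusted p = 0.0212). The groups did not overlap with vehicle and overlapped with Act D. The differences were small, and on the log2(TPM + 0.1) scale they were -0.023 and -0.22. With vehicle, the adjusted p of AMBRA1 was 0.0664, 0.0565 and 0.0554 without p53-/- vehicle replicate 1, p53-/- vehicle replicate 3 or uL3Δ-labelled vehicle replicate 1, respectively. With Act D, the adjusted p of AMBRA1 was 0.0554, 0.136, 0.154 and 0.0564 without p53-/- Act D replicate 1, p53-/- Act D replicate 3, uL3Δ-labelled Act D replicate 1 or uL3Δ-labelled Act D replicate 2, respectively.

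Of the 9 lipid transfer and ATG9 genes, 6 were higher and 2 lower in uL3Δ-labelled libraries with vehicle, and 7 higher and 2 lower with Act D. The 2 lower genes were WIPI1 and WDR45B, both of the WIPI family of PI3P-binding proteins, and the other members of that family, WIPI2 and WDR45, were higher, though WIPI2 was at -0.023 and -0.092 on the log2(TPM + 0.1) scale. WDR45B (chr17:82614562-82648553, minus strand) had 202, 194 and 192 CPM in vehicle-treated p53-/- libraries and 90.1, 95.3 and 92.4 CPM in uL3Δ-labelled ones (log2 fold change -1.08 ± 0.073, adjusted p = 3.14e-10). With Act D it had 213, 230.1 and 213 and 62.9, 61.1 and 65.2 CPM (log2 fold change -1.79 ± 0.076, adjusted p = 6.16e-13). The gap was wider with Act D, a difference that is tested below. WIPI1 had 15.8, 13.6 and 11.8 CPM and 3.05, 5.15 and 5.06 CPM with vehicle (log2 fold change -1.60 ± 0.19, adjusted p = 4.89e-07) and 14.0, 11.6 and 12.5 CPM and 6.04, 4.23 and 6.03 CPM with Act D (log2 fold change -1.21 ± 0.19, adjusted p = 2.4e-05). Its groups did not overlap either time. WIPI2, the member that recruits ATG16L1, was higher with vehicle (0.32 ± 0.093, adjusted p = 0.00481) and with Act D (0.27 ± 0.094, adjusted p = 0.0172). With Act D, the adjusted p of WIPI2 was 0.145, 0.0857 and 0.137 without p53-/- Act D replicate 3, uL3Δ-labelled Act D replicate 1 or uL3Δ-labelled Act D replicate 3, respectively. WDR45 was higher with vehicle (0.93 ± 0.12, adjusted p = 1.31e-06) and with Act D (0.97 ± 0.12, adjusted p = 1.32e-06).

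TMEM41B, a scramblase of the endoplasmic reticulum, had 33.1, 34.6 and 34.8 CPM in vehicle-treated p53-/- libraries and 81.6, 88.4 and 79.1 CPM in uL3Δ-labelled ones (log2 fold change 1.28 ± 0.091, adjusted p = 6.02e-10), and with Act D 32.0, 31.2 and 32.5 and 54.1, 67.2 and 64.8 CPM (log2 fold change 0.96 ± 0.093, adjusted p = 5.1e-08). The lowest uL3Δ-labelled library was above the highest p53-/- library under both treatments. The lipid transfer gene ATG2A had 13.5, 16.9 and 17.6 CPM and 38.9, 27.8 and 35.5 CPM with vehicle (log2 fold change 1.08 ± 0.14, adjusted p = 1.49e-06), and 25.4, 24.6 and 23.0 CPM and 42.3, 32.4 and 38.6 CPM with Act D (log2 fold change 0.64 ± 0.14, adjusted p = 0.000434). Its paralogue ATG2B was higher with vehicle (0.75 ± 0.12, adjusted p = 2.29e-05), as was ATG9A (0.68 ± 0.12, adjusted p = 4.66e-05), whose vesicles seed the membrane. Both were also called higher with Act D (0.80 and 0.69). VMP1 was at 0.18 with vehicle (adjusted p = 0.11) and was called higher with Act D (0.30 ± 0.097, adjusted p = 0.0109), but its value on the log2(TPM + 0.1) scale was -0.30. The adjusted p of VMP1 was 0.0529 and 0.0529 without uL3Δ-labelled Act D replicate 2 or uL3Δ-labelled Act D replicate 3, respectively.

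Among the 10 conjugation genes, 7 were higher and 2 lower with vehicle, and 6 higher and 3 lower with Act D. The 7 higher genes encode enzymes of the pathway, and the genes of the ATG12, ATG5 and ATG16L1 complex that the enzymes build were not among them: ATG12 (-1.02 ± 0.097, adjusted p = 3.34e-08) and ATG5 (-0.25 ± 0.094, adjusted p = 0.0215) were lower with vehicle, and ATG16L1 (-0.16 ± 0.096, adjusted p = 0.14) was not called. With Act D all 3 were lower, with log2 fold changes of -0.84 for ATG12, -0.28 for ATG5 and -0.60 for ATG16L1. ATG5 was at 0.035 with Act D on the log2(TPM + 0.1) scale with the libraries centred. With vehicle, the adjusted p of ATG5 was 0.0875, 0.053 and 0.0718 without p53-/- vehicle replicate 1, uL3Δ-labelled vehicle replicate 2 or uL3Δ-labelled vehicle replicate 3, respectively. With Act D, that of ATG5 was 0.106 without uL3Δ-labelled Act D replicate 1.

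ATG7, the activating enzyme of both conjugation reactions, had 19.9, 18.7 and 19.4 CPM in vehicle-treated p53-/- libraries and 33.0, 31.7 and 30.8 CPM in uL3Δ-labelled ones (log2 fold change 0.72 ± 0.094, adjusted p = 1.91e-06), and with Act D 13.0, 11.6 and 11.7 and 27.4, 27.8 and 29.2 CPM (log2 fold change 1.22 ± 0.10, adjusted p = 5.55e-09). All uL3Δ-labelled libraries were above all p53-/- libraries under both treatments. ATG3, which transfers LC3 to lipid, was higher with vehicle (0.97 ± 0.093, adjusted p = 3.49e-08) and with Act D (1.03 ± 0.093, adjusted p = 2.1e-08). ATG10, which transfers ATG12 to ATG5, was at 2.98, 3.72 and 4.17 CPM and 5.54, 5.90 and 4.59 CPM with vehicle (log2 fold change 0.56 ± 0.19, adjusted p = 0.0152) and at 2.68, 2.77 and 3.14 CPM and 5.60, 6.74 and 5.57 CPM with Act D (log2 fold change 1.06 ± 0.21, adjusted p = 0.000178). All its uL3Δ-labelled libraries were above the p53-/- ones, but with vehicle its value was -0.16 on the log2(TPM + 0.1) scale. With vehicle, the adjusted p of ATG10 was 0.0721 and 0.0672 without p53-/- vehicle replicate 1 or uL3Δ-labelled vehicle replicate 2, respectively.

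The ATG4 proteases cut LC3 and GABARAP precursors and remove the lipidated forms. ATG4B, the most active of them, had 46.6, 51.9 and 46.0 CPM in vehicle-treated p53-/- libraries and 119, 100.1 and 85.5 CPM in uL3Δ-labelled ones (log2 fold change 1.08 ± 0.11, adjusted p = 7.82e-08). With Act D it had 42.3, 41.7 and 41.9 CPM and 64.2, 59.96 and 73.2 CPM (log2 fold change 0.65 ± 0.11, adjusted p = 5.24e-05). The uL3Δ-labelled libraries were higher each time. ATG4C had 10.2, 7.99 and 7.61 CPM and 11.5, 14.4 and 13.8 CPM with vehicle (log2 fold change 0.63 ± 0.15, adjusted p = 0.000913), and 6.54, 7.37 and 8.28 CPM and 15.3, 18.5 and 16.1 CPM with Act D (log2 fold change 1.17 ± 0.15, adjusted p = 2.07e-06). ATG4A was also higher both times (1.06 and 0.97), and ATG4D was called with vehicle only (0.42 ± 0.14, adjusted p = 0.0117, against -0.068 ± 0.14, adjusted p = 0.686 with Act D). With vehicle, the adjusted p of ATG4D was 0.0579 and 0.0612 without p53-/- vehicle replicate 1 or uL3Δ-labelled vehicle replicate 1, respectively.

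Of the 5 fusion factors, 2 were higher and 3 lower with vehicle, and 1 higher and 2 lower with Act D. SNAP29 (-0.97 ± 0.11, adjusted p = 4.05e-07) and STX17 (-0.77 ± 0.12, adjusted p = 1.47e-05), SNARE proteins of the autophagosome side, and EPG5 (-0.45 ± 0.13, adjusted p = 0.00605), a tether, were lower in uL3Δ-labelled libraries with vehicle, while the lysosomal SNARE VAMP8 (0.41 ± 0.15, adjusted p = 0.0183) and TECPR1 (0.65 ± 0.14, adjusted p = 0.000371), which binds the ATG12 and ATG5 conjugate, were higher. With Act D, SNAP29 (-0.64) and STX17 (-0.29) were lower and TECPR1 (0.75) higher, and EPG5 and VAMP8 did not pass the test (-0.23 and -0.036). VAMP8 was at -0.094 with vehicle on the log2(TPM + 0.1) scale. With vehicle, the adjusted p of VAMP8 was 0.0771 without uL3Δ-labelled vehicle replicate 2. With Act D, the adjusted p of STX17 was 0.198, 0.0653, 0.102 and 0.0525 without p53-/- Act D replicate 1, p53-/- Act D replicate 2, uL3Δ-labelled Act D replicate 2 or uL3Δ-labelled Act D replicate 3, respectively.

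With Act D, 20 members were higher and 11 lower in the uL3Δ-labelled libraries, 86.1% of the members, where 70.4% of all genes tested were called, 35.1% as higher and 35.3% as lower. A change of at least 1.5-fold was seen in 23 members and in 54% of all genes, and libraries did not overlap for 30 members and 74.1% of all genes. The members not called were ULK1, PIK3C3, ATG4D, EPG5 and VAMP8. With vehicle and with Act D, 29 members were called in both, all in the same direction, which is 87.9% of the members called with vehicle and 93.5% of those called with Act D. Over all genes, 9612 were called in both, 85.9% and 87% of each, and 101 of these had opposite directions. With limma on log2(TPM + 0.1), 7 members were higher and 12 lower with Act D, and by library size alone 16 were higher and 12 lower. With the log2 TPM libraries centred, 17 were higher and 7 lower. On log2(TPM + 0.1) without the centring, ULK2 was at -2.15, UVRAG at 1.51 and RB1CC1 at 1.27 with vehicle.

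The second question was what Act D does to these genes in each line. In p53-/- cells ULK1, ATG101, ATG2A and VAMP8 rose and UVRAG, AMBRA1, ATG5 and ATG7 fell. These 8 are 22.2% of the members, where 18.7% of all genes tested were called, 7.59% as higher and 11.1% as lower. Libraries with and without Act D did not overlap for 18 members, 50% of them, and for 38.2% of all genes. The 4 members that changed by at least 1.5-fold, ATG2A, UVRAG, AMBRA1 and ATG7, compare with 8.18% of all genes. The median log2 fold change was -0.020 over the members and 0.018 over all genes. By library size alone the split was 2 rises and 6 falls, and on centred log2(TPM + 0.1) 4 rises and 1 fall.

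**Figure D3:**
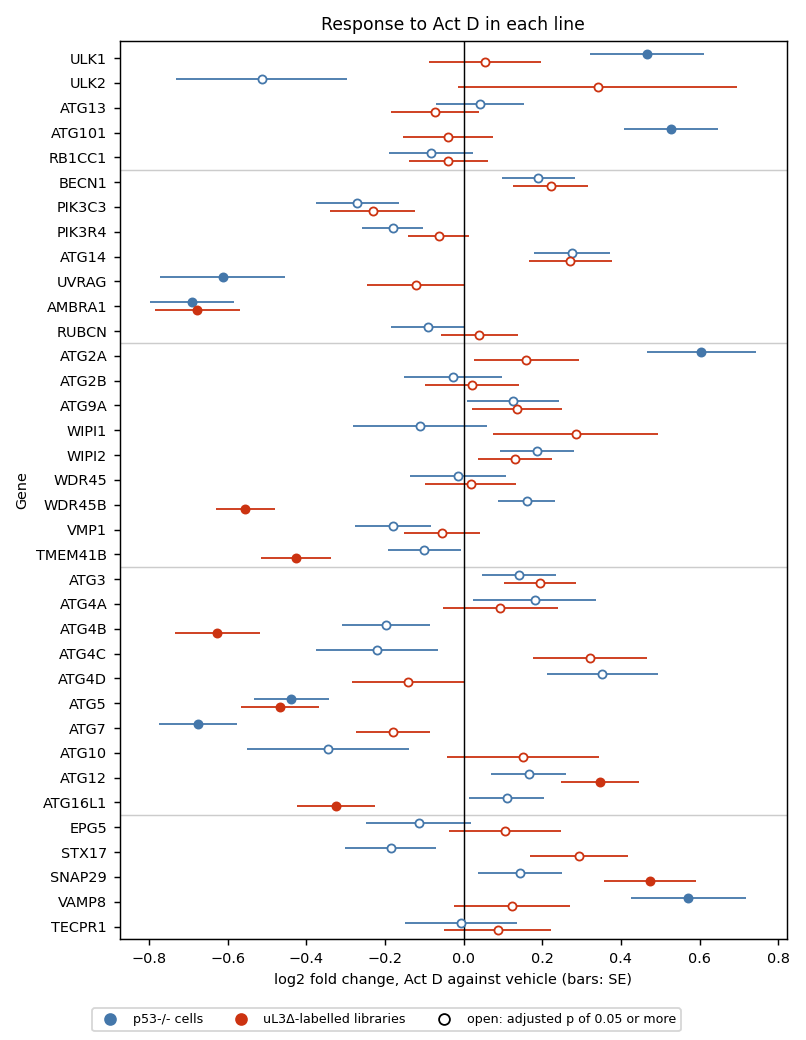
Response to Act D for each of the 36 genes (vertical axis, grouped by role), as log2 fold change of Act D against vehicle (horizontal axis), in p53-/- cells in blue and in uL3Δ-labelled libraries in red. Bars are standard errors, and open points have an adjusted p of 0.05 or more. The responses lie between -0.69 (AMBRA1) and 0.60 (ATG2A), a narrower range than the differences between the lines.

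AMBRA1 fell from 36.8, 42.0 and 37.9 CPM with vehicle to 24.0, 25.9 and 22.3 CPM with Act D in p53-/- cells (log2 fold change -0.69 ± 0.11, adjusted p = 0.000198). ATG7 fell from 19.9, 18.7 and 19.4 to 13.0, 11.6 and 11.7 CPM (log2 fold change -0.67 ± 0.10, adjusted p = 0.000121). Neither had overlapping libraries. UVRAG went from 7.32, 10.2 and 9.96 to 5.11, 5.48 and 7.56 CPM (log2 fold change -0.61 ± 0.16, adjusted p = 0.0116), where vehicle replicate 1 lay below Act D replicate 3. The adjusted p of UVRAG was 0.0779, 0.0587, 0.053 and 0.0507 without p53-/- Act D replicate 1, p53-/- Act D replicate 2, p53-/- vehicle replicate 2 or p53-/- vehicle replicate 3, respectively. ATG5 fell by less (log2 fold change -0.44 ± 0.094, adjusted p = 0.00333).

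ATG2A rose from 13.5, 16.9 and 17.6 CPM to 25.4, 24.6 and 23.0 CPM (log2 fold change 0.60 ± 0.14, adjusted p = 0.00542) and ATG101 from 44.7, 46.6 and 33.6 CPM to 63.2, 59.4 and 57.2 CPM (log2 fold change 0.53 ± 0.12, adjusted p = 0.00446), each without overlap. ULK1 rose from 8.94, 11.5 and 13.6 CPM to 17.1, 15.3 and 14.6 CPM (log2 fold change 0.47 ± 0.14, adjusted p = 0.0321), also without overlap. The adjusted p of ULK1 was 0.138, 0.0682, 0.153 and 0.0733 without p53-/- Act D replicate 1, p53-/- Act D replicate 2, p53-/- vehicle replicate 1 or p53-/- vehicle replicate 2, respectively. VAMP8 rose as well (0.57 ± 0.15, adjusted p = 0.0109). ULK2, at 7.71, 8.81 and 6.82 and 4.55, 7.10 and 4.66 CPM, did not pass the test (-0.51 ± 0.22, adjusted p = 0.113), and neither did ATG13 (0.041) or RB1CC1 (-0.083).

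In the uL3Δ-labelled libraries ATG12 and SNAP29 rose with Act D, and AMBRA1, WDR45B, TMEM41B, ATG4B, ATG5 and ATG16L1 fell. These 8 are again 22.2% of the members, where 11.9% of all genes were called, 3.51% as higher and 8.4% as lower. Libraries did not overlap for 14 members, 38.9%, and 27.6% of all genes, and AMBRA1 and ATG4B changed by at least 1.5-fold, as did 4.83% of all genes. The median log2 fold change was 0.047 over the members and 0.029 over all genes. The split was 0 rises and 6 falls by library size alone, 3 and 5 by upper-quartile factors, 2 and 3 on centred log2(TPM + 0.1) and 0 and 1 without the centring. AMBRA1 and ATG5 were the members called in both lines, 25% of the 8 in each, and of all genes 768 were called in both, 26.1% of those in p53-/- cells and 41.1% of those in uL3Δ-labelled libraries.

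AMBRA1 fell from 51.1, 44.9 and 46.8 CPM to 33.5, 29.5 and 25.7 CPM (log2 fold change -0.68 ± 0.11, adjusted p = 0.000397), next to -0.69 in p53-/- cells. ATG4B fell from 119, 100.1 and 85.5 to 64.2, 59.96 and 73.2 CPM (log2 fold change -0.63 ± 0.11, adjusted p = 0.000894), and WDR45B from 90.1, 95.3 and 92.4 to 62.9, 61.1 and 65.2 CPM (log2 fold change -0.56 ± 0.075, adjusted p = 9.94e-05). In all 3 genes every library with Act D was below every library with vehicle. TMEM41B fell from 81.6, 88.4 and 79.1 CPM to 54.1, 67.2 and 64.8 CPM (log2 fold change -0.43 ± 0.089, adjusted p = 0.00393), and ATG5 fell too (-0.47 ± 0.098, adjusted p = 0.00417). ATG16L1 (-0.33 ± 0.099, adjusted p = 0.0404), ATG12 (0.35 ± 0.099, adjusted p = 0.0291) and SNAP29 (0.47 ± 0.12, adjusted p = 0.0123) were called with smaller margins, and ATG12 had -0.088 on the log2(TPM + 0.1) scale. The adjusted p of ATG12 was 0.057, 0.16, 0.0541, 0.124 and 0.0596 without uL3Δ-labelled Act D replicate 1, uL3Δ-labelled Act D replicate 2, uL3Δ-labelled Act D replicate 3, uL3Δ-labelled vehicle replicate 1 or uL3Δ-labelled vehicle replicate 3, respectively. That of ATG16L1 was 0.159, 0.0589, 0.149 and 0.112 without uL3Δ-labelled Act D replicate 1, uL3Δ-labelled Act D replicate 3, uL3Δ-labelled vehicle replicate 1 or uL3Δ-labelled vehicle replicate 2, respectively. That of SNAP29 was 0.0553 and 0.0518 without uL3Δ-labelled Act D replicate 1 or uL3Δ-labelled Act D replicate 3, respectively. Without uL3Δ-labelled Act D replicate 1, and likewise without replicate 3, 5 members were called. ULK1 (0.054), ATG101 (-0.040), RB1CC1 (-0.039) and UVRAG (-0.12) were not called.

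The 2 responses to Act D were then compared by the interaction term of the same fit, the response in uL3Δ-labelled libraries minus that in p53-/- cells. It was called for 3 members, 8.33%, and for 6.53% of all genes, 3.3% as higher and 3.23% as lower. WDR45B differed most clearly: at 0.16 in p53-/- cells (adjusted p = 0.134) and -0.56 in uL3Δ-labelled libraries, its responses differed by -0.72 ± 0.10, adjusted p = 0.000676, the only called difference of at least 1.5-fold among the members (called and at least 1.5-fold in 4.96% of all genes). That of ULK2 was larger but was not called (log2 fold change 0.85 ± 0.42, adjusted p = 0.247). ATG101 responded with 0.53 and -0.040, a difference of -0.57 ± 0.16, adjusted p = 0.0476, and ATG7 with -0.67 and -0.18, a difference of 0.49 ± 0.14, adjusted p = 0.037. By library size alone 0 differences were positive and 1 negative, and by upper-quartile factors 1 of each. The WDR45B difference passed the test without any 1 of the 12 libraries. The ATG101 difference passed without p53-/- vehicle replicate 1 or 2, uL3Δ-labelled vehicle replicate 3 or uL3Δ-labelled Act D replicate 3, and without any of the other 8 libraries its adjusted p was between 0.0579 and 0.122. The ATG7 difference passed without uL3Δ-labelled vehicle replicate 1, and without any of the other 11 libraries its adjusted p was between 0.0541 and 0.125. Both are thus close to the threshold. For the other 33 members, ULK1 and UVRAG included (-0.41 ± 0.20, adjusted p = 0.253, and 0.49 ± 0.20, adjusted p = 0.162), the difference between the responses did not pass the test.

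**Figure D4:**
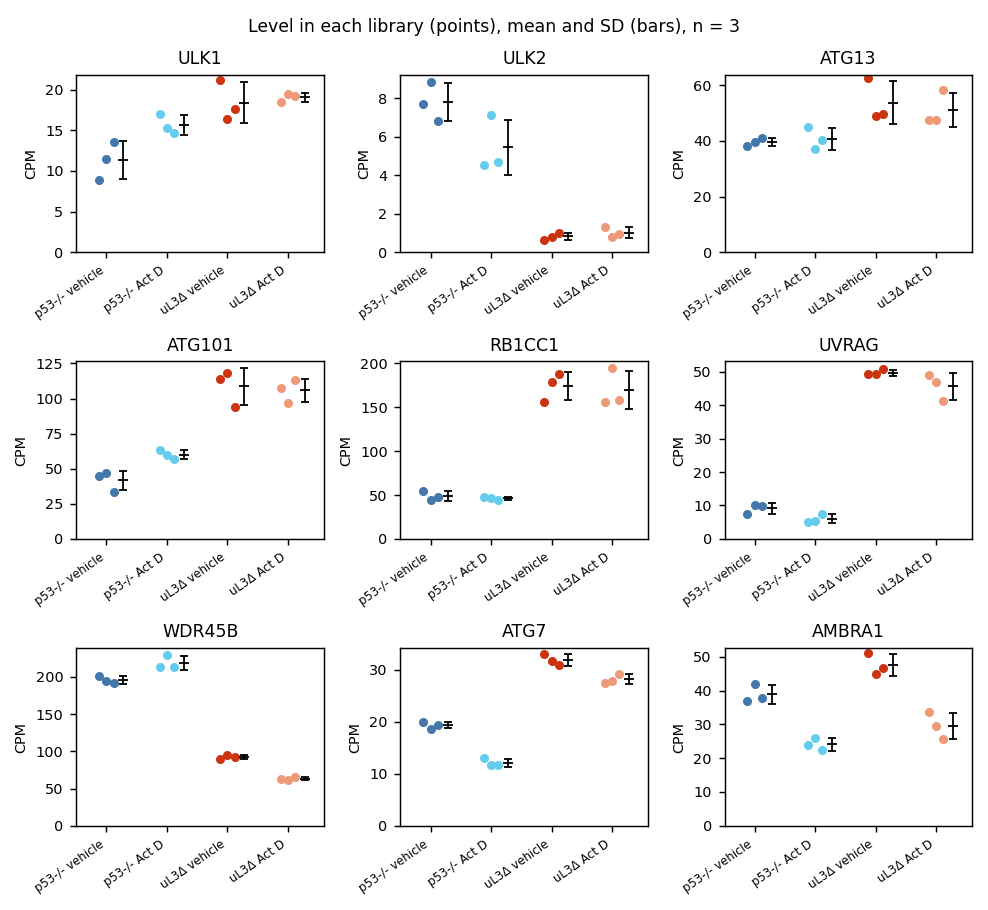
Level of 9 genes in CPM (vertical axis, from 0) in the 4 groups (horizontal axis). Points are libraries, and bars give the mean and SD of n = 3. ULK2 is near 0.819 CPM in vehicle-treated uL3Δ-labelled libraries against 7.78 CPM in p53-/- ones, and UVRAG near 49.8 against 9.16 CPM. WDR45B falls with Act D in the uL3Δ-labelled libraries, from 92.6 to 63.1 CPM, and not in p53-/- cells, where ATG7 falls from 19.3 to 12.1 CPM.

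Where several related genes can do the same step, the share of each in their summed TPM was compared between the groups. With 3 against 3 libraries an exact two-sided permutation test cannot give a p below 0.1, and 48 gene and comparison pairs were examined, so that no share reaches the threshold. ULK1 held 45.0 ± 10.7% (SD, n = 3) of the ULK1 and ULK2 sum in vehicle-treated p53-/- cells and 85.1 ± 2.09% in uL3Δ-labelled libraries, and with Act D 67.4 ± 5.34% and 87.8 ± 6.65%. The libraries of the lines did not overlap (differences of 40.1 and 20.4 percentage points, exact permutation p = 0.1 each). In p53-/- cells the share of ULK1 was also higher with Act D, by 22.4 points without overlap (exact permutation p = 0.1), and in uL3Δ-labelled libraries by 2.65 points with overlap (exact permutation p = 0.6). In vehicle-treated p53-/- libraries ULK2 had similar counts, 119, 128 and 113, but 1.32, 2.74 and 2.94 TPM. These shares thus depend on the TPM scale, and they were not computed on CPM.

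WDR45B held 69.5 ± 0.992% of the sum of the 4 WIPI genes in vehicle-treated p53-/- cells and 46.1 ± 1.24% in uL3Δ-labelled libraries. With Act D its shares were 71.3 ± 1.34% and 36.1 ± 1.74%. With vehicle, WIPI2 held 14.4 ± 0.905% in p53-/- cells and 27.9 ± 1.16% in uL3Δ-labelled libraries, and WDR45 8.84 ± 0.67% and 22.8 ± 0.495%. All of these differences between the lines were without overlap (exact permutation p = 0.1 each). Among the proteases, ATG4B held 52.9 ± 1.54% and 59.2 ± 2.18% with vehicle and ATG4D 30.9 ± 2.58% and 23.8 ± 0.916%, and ATG2A held 67.1 ± 6.73% and 74.3 ± 8.53% of the ATG2 sum, with overlap for ATG2A (exact permutation p = 0.4).

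**Figure D5:**
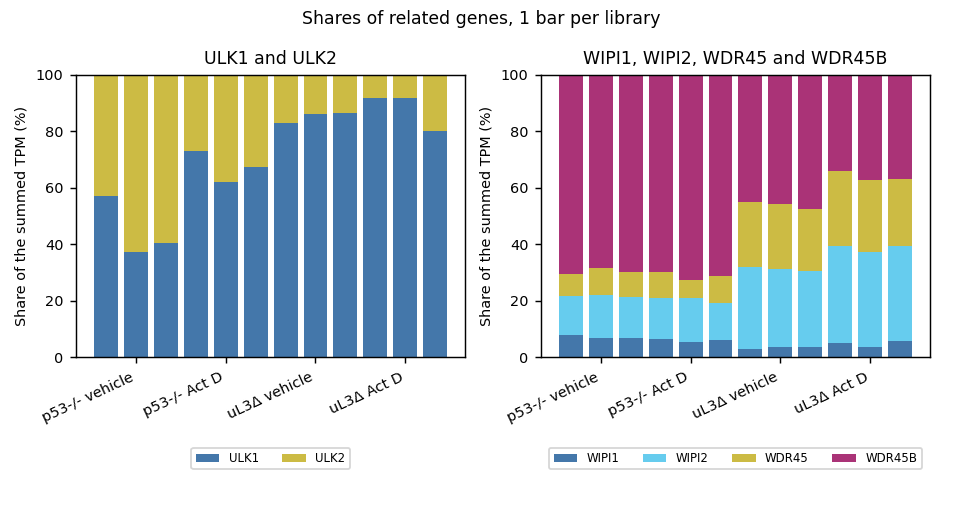
Share of each gene in the summed TPM of its family, in percent (vertical axis, 0 to 100), with 1 bar per library in the 4 groups (horizontal axis), for ULK1 and ULK2 and for the WIPI family. ULK1 fills 45.0% of the bar on average in vehicle-treated p53-/- cells and 85.1% in uL3Δ-labelled libraries, and WDR45B 69.5% and 46.1%.

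The genes that act beside this machinery were counted in the same fit, from 4 lists. Of the LC3 and GABARAP family, which coats the membrane, 4 of 7 genes passed the filter, and 3 of them were higher in uL3Δ-labelled libraries with vehicle, 1 with Act D, and none lower, though MAP1LC3B with vehicle was at -0.20 on the log2(TPM + 0.1) scale and lost its call without any of 3 libraries (adjusted p up to 0.188). Act D raised MAP1LC3B (0.75 ± 0.11, adjusted p = 0.000138), GABARAPL1 (0.56 ± 0.18, adjusted p = 0.0385) and GABARAPL2 (0.37 ± 0.12, adjusted p = 0.044) in p53-/- cells and MAP1LC3B (0.43 ± 0.11, adjusted p = 0.0192) in uL3Δ-labelled libraries. The calls of GABARAPL1 and GABARAPL2 were each lost without any of 5 of the 6 libraries, with adjusted p of up to 0.18 and 0.204, and that of MAP1LC3B in uL3Δ-labelled libraries without any of 4, with up to 0.0882.

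Of the 11 cargo receptors, 6 were higher and 3 lower with vehicle, and 5 higher and 3 lower with Act D. BNIP3, a mitophagy receptor, was at 60.7 CPM in vehicle-treated p53-/- cells and 1.61 CPM in uL3Δ-labelled libraries (log2 fold change -5.21 ± 0.26, adjusted p = 4.71e-12), RETREG1, a receptor for the endoplasmic reticulum, at 4.03 and 0.614 CPM (-2.77), and OPTN, a receptor for ubiquitinated cargo, at 12.1 and 65.4 CPM (2.44). These receptors thus differed in both directions. Act D raised NCOA4 (0.42) and OPTN (0.34) in p53-/- cells and lowered TOLLIP (-0.73) and SQSTM1 (-0.38) in uL3Δ-labelled libraries. SQSTM1, the receptor p62, was at 317 and 374 CPM with vehicle and Act D in p53-/- cells and at 644 and 495 CPM in uL3Δ-labelled libraries. The OPTN call was lost without any of 4 libraries (adjusted p up to 0.154) and the SQSTM1 call without any of 3 (up to 0.189).

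Of 15 regulators, 14 passed the filter, and 4 were higher and 6 lower in uL3Δ-labelled libraries with vehicle, 4 and 7 with Act D. TFE3, a transcription factor of lysosome and autophagy genes, was at 9.26 and 34.3 CPM (log2 fold change 1.89 ± 0.12, adjusted p = 1.61e-10) and BCL2, which binds BECN1, at 3.72 and 0.385 CPM (-3.25). BCL2 had only 0.161, 0.25 and 0.743 CPM in the vehicle-treated uL3Δ-labelled libraries, so its fold rests on few counts. TFEB was not called (2.26 and 2.76 CPM). PRKAA2, a catalytic subunit of AMPK, was called lower with vehicle, at 2.16 and 0.0761 CPM (adjusted p = 1.5e-06), and no fold is given because its counts in uL3Δ-labelled libraries were at or near 0. RUBCNL did not pass the filter. In p53-/- cells Act D raised NRBF2 (0.59) and ZFYVE1 (0.54) and lowered RPTOR (-2.05), PRKAA1 (-0.46), FOXO3 (-0.31) and MTOR (-0.28). RPTOR, the mTORC1 subunit raptor, was the largest of these, from 106 to 25.6 CPM, and in uL3Δ-labelled libraries it fell from 38.4 to 19.6 CPM (log2 fold change -0.95 ± 0.15, adjusted p = 0.000531). FOXO3 (-0.76) and PRKAA1 (-0.34) fell there too. The FOXO3 and MTOR calls in p53-/- cells were lost without any of 4 and of 5 libraries (adjusted p up to 0.132 and 0.121), that of ZFYVE1 without 1 (p53-/- Act D replicate 3, 0.0568) and that of PRKAA1 in uL3Δ-labelled libraries without any of 4 (up to 0.153).

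Of 9 genes for tethering to the lysosome, 2 were higher and 5 lower with vehicle, and 1 higher and 5 lower with Act D. RAB7A, the small GTPase of late endosomes, was at 114 and 239 CPM (log2 fold change 1.07 ± 0.080, adjusted p = 1.28e-09), and VPS41, a subunit of the HOPS tether, at 51.9 and 28.4 CPM (-0.87). PLEKHM1, an adaptor of RAB7, was at 21.4 and 11.9 CPM (-0.85). In p53-/- cells Act D raised PLEKHM1 (0.44) and the SNARE protein YKT6 (0.26), calls that were lost without any of 3 and of all 6 libraries (adjusted p up to 0.0913 and 0.163). In uL3Δ-labelled libraries none of the 9 passed the test with Act D. The differences between the lines for BNIP3, RETREG1, OPTN, TFE3, BCL2, RAB7A, VPS41 and PLEKHM1 were called without each library in turn.

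Some of these counts have a known limit in how reads are assigned. Of the 36 members, 17 share exonic bases with a gene on the opposite strand and 4 with one on the same strand in GENCODE v44, and the use of strand in the counting is not given in the sources used here. The longest of these overlaps are RUBCN with a non-coding RNA (5997 bases), ATG9A with a same-strand protein-coding gene (1833), ATG7 with VGLL4 (1597) and ATG14 with FBXO34 (1047), and ATG101 shares 614 bases with a non-coding RNA and WDR45B 53 with FOXK2. The posterior SD that RSEM gives for the division of reads was at most 2% of the count in 35 members, and for ATG9A it reached 3.51% in 1 library. Over replicates the median coefficient of variation of the members was between 7.48% and 10.1% in the 4 groups.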

How the data were processed

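RNA-seq counts of 36 genes were taken from 12 libraries (4 groups of 3, from the sample labels). The authors trimmed reads, removed those from ribosomal RNA and PhiX, and assigned the others with RSEM 1.2.25 to Ensembl genes of hg38. They deposited expected counts, TPM and the posterior SD of each count per gene for 11 libraries. Replicate 2 of vehicle-treated p53-/- cells was deposited per transcript (226788 transcripts, with each transcript's percent of its gene's TPM) and was summed per gene. Expected counts are fractional because a read that fits several genes is divided, and they were rounded.

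The filter filterByExpr kept 15692 of 33990 genes with a count. TMM factors were between 0.847 and 1.148, and a model with 1 coefficient per group was fitted over the 12 libraries (edgeR 4.0.16 on R 4.3.3, common dispersion 0.0117). Unless another tool is named, adjusted p-values of genes are those of the quasi-likelihood F test of edgeR, adjusted over all genes tested (Benjamini-Hochberg). Folds are ratios from this fit. The study's text gives an FDR under 0.05 and names no tool. As alternatives served DESeq2 1.42.0, the likelihood-ratio test, limma 3.58.1 on log2(TPM + 0.1) for the 13220 genes with at least 1 TPM in 3 libraries, library size alone, upper-quartile factors, no filter, a filter of 1 CPM, a replicate block, only the groups compared, a further 1.5-fold threshold and each library left out. Centring of the log2 TPM was chosen after seeing the data. Symbols and coordinates are from GENCODE v44 (60261 of 60617 identifiers matched), and promoter windows from RefSeq (30 of 36 members). Exact permutation tests used Python 3.11.

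Values in every library are given for ULK1, ATG13 and ATG101, which the study measured by RT-qPCR, and for up to 8 members per comparison with an adjusted p under 0.05 and a change of at least 1.5-fold, and for ATG14, which was added after its values were seen. From the 4 lists beside the members, up to 3 genes per list and comparison past the threshold are named, by size of change, with a few others chosen after their values were seen. The members and lists were chosen with earlier results of these data known. Precision is limited by 3 libraries per group. No 2 libraries had identical counts.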

Additional observations from a re-analysis of the deposited data

Results flagged for a closer look

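The response to Act D differed between the lines by the interaction test (edgeR's quasi-likelihood test, adjusted p under 0.05) for 3 members and 4 genes named beside them. Values are the log2 response in uL3Δ-labelled libraries minus that in p53-/- cells. WDR45B had a difference of -0.72 (adjusted p = 0.000676), ATG101 of -0.57 (adjusted p = 0.0476) and ATG7 of 0.49 (adjusted p = 0.037). Among the others RPTOR had 1.10 (adjusted p = 0.00452), falling more in p53-/- cells, where all 3 Act D libraries had 26.7, 24.7 and 25.6 CPM against 93.2, 115 and 110.3 with vehicle. SQSTM1 had -0.62 (adjusted p = 0.0291), NRBF2 -0.55 (adjusted p = 0.0479) and PLEKHM1 -0.69 (adjusted p = 0.0397). The RPTOR difference was called without each of the 12 libraries in turn, and those of SQSTM1, NRBF2 and PLEKHM1 were lost without any of 6, 8 and 9 of them, with adjusted p of up to 0.0814, 0.127 and 0.0988. Groups of 3 are too small for a test of single outlying libraries.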

How the results depend on the processing

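With vehicle, 18 of the 33 members called between the lines, and with Act D 13 of 31, had the same result under every alternative, and none of the 8, 8 and 3 members called for Act D in p53-/- cells, Act D in uL3Δ-labelled libraries and the interaction did. The 2-group, filter, likelihood-ratio and DESeq2 alternatives kept every count within 1.5 times. For Act D in p53-/- cells, 8 calls became 4 with the 1.5-fold threshold, 0 with limma on log2(TPM + 0.1) and 5 with its libraries centred, and 6 to 8 without 1 library. For Act D in uL3Δ-labelled libraries, 8 became 2, 1 and 5, and 5 to 7 without 1 library. The 3 interaction calls became 1, 0 and 1, 1 by library size alone, and 1 to 4 without 1 library. The lines differed in 30 to 33 members with vehicle and 27 to 29 with Act D without 1 library, and in 19 members with Act D by limma on log2(TPM + 0.1). Over all genes, the calls for Act D in p53-/- cells went from 2939 to 1283, 531 and 1489 under the first 3 of these, and to 1833 and 1949 without p53-/- Act D replicates 1 and 2. Those in uL3Δ-labelled libraries went from 1869 to 758, 218 and 746. Those of the interaction went from 1025 to 23 and 245 by limma without and with centring, and to 630, 669 and 614 without p53-/- Act D replicates 1 and 2 and uL3Δ-labelled Act D replicate 1.

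On log2(TPM + 0.1), which shifts the median of all genes between the lines, differences with vehicle reversed for AMBRA1 (-0.023), ATG10 (-0.16), ATG13 (-0.26), VAMP8 (-0.094), WIPI2 (-0.023), MAP1LC3B (-0.20), NCOA4 (-0.10), TOLLIP (-0.097) and YKT6 (-0.26), differences with Act D for AMBRA1 (-0.22), ATG13 (-0.19), VMP1 (-0.30), WIPI2 (-0.092), GABARAPL2 (-0.019), PRKAA1 (-0.20) and SQSTM1 (-0.070), and the rise of ATG12 with Act D in uL3Δ-labelled libraries (-0.088). With the libraries centred on their median only ATG5 with Act D reversed (0.035), and its cause was not tested.

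The replicate numbers gave no sign of pairing between the samples. Same-numbered libraries had correlations of their deviations between -0.104 and 0.101 (median -0.0306, 18 pairs). Those of different-numbered libraries were between -0.0985 and 0.0989 (median 0.0178, 36 pairs). With 3 libraries per group, such values cannot show that pairing was absent. With the replicate number as a block, 33, 31, 7 and 7 members were called in the 4 comparisons between groups and 1 for the interaction.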

Other observations

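The 1 library deposited per transcript, vehicle replicate 2 of p53-/- cells, shows which transcripts made up the gene values there. The whole TPM of ATG14 came from a single transcript, and a single transcript held 97.5% of the TPM of VAMP8, 95.0% of ATG101, 93.4% of WDR45B and 93.3% of ULK1. ULK2 was divided between 4 transcripts with a count, of which the leading one was only 627 bases long and held 39.1%, and ATG7 between 10, the leading one with 29.5%. UVRAG had 5 transcripts with a count, the leading one with 40.4%. With 1 library there is no replicate of these shares, and the transcripts of uL3Δ-labelled libraries were not analysed here.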
